A study of Mus musculus with 8 samples.

Results

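The core circadian clock loop was followed in tibialis anterior (TA) muscle through 10 transcripts, *Arntl*, *Clock*, *Npas2*, *Per1*, *Per2*, *Per3*, *Cry1*, *Cry2*, *Nr1d1* and *Nr1d2*. They were chosen by gene symbol, with earlier results of these data known, and all 10 were found among the 12551 genes of the count table. The study asked how loss of Klotho, a hormone and co-receptor made mainly in the kidney, affects skeletal muscle. RNA was sequenced from whole TA muscle of 4 wild-type (WT) and 4 homozygous Klotho-deficient (KL-/-) littermates, all males of 7 weeks, with 1 mouse behind each library. The mice descend from a Klotho-null line on a mixed background, and the gene is missing from every tissue from conception, so the muscle comes from a systemically ill, small animal and not from a muscle-specific deletion. No mouse received a treatment. The *Kl* gene was not among the 12551 genes and is not analysed here, so the genotypes rest on the labels. The hour at which muscles were collected is not given in the sources used here, and the part of sampling hour in the values that follow was not tested.

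The circadian clock of mammalian cells is a delayed feedback loop. ARNTL (BMAL1) pairs with CLOCK or its relative NPAS2 and drives *Per*, *Cry* and *Nr1d* transcription through E-box elements. PER and CRY proteins return to the nucleus and block that pair, while NR1D1 and NR1D2 (REV-ERB alpha and beta) repress *Arntl* through ROR elements. Most of these transcripts therefore rise and fall over the day, with *Arntl* out of phase with the *Per* and *Nr1d1* transcripts, whereas *Clock* is nearly constant in many tissues. Skeletal muscle holds such a clock, which is set by feeding, activity and glucocorticoids as well as by light.

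Because members act on each other's genes through E-box and ROR elements, the promoter sequence of 6 members is shown. The D-box and the cyclic AMP element were searched beside them and are not given as sites of loop members. RefSeq start sites on GRCm38.p6 gave windows from 250 bases before to 50 bases after the start for 9 of the 10 members, 13 windows in all, and *Per2* had none. Searched on both strands, the E-box CACGTG was found in 7.15% of the 32851 RefSeq windows, its variant CACGTT (E'-box) in 4.685%, the D-box TTATGTAA or TTACGTAA in 1.056%, the ROR element ANTAGGTCA in 0.661% and the cyclic AMP element TGACGTCA in 1.79%. Of the 13 windows of members, 6 held at least 1 of these motifs, in 6 genes. The share of all windows that hold at least 1 of them was not computed, so this count has no background. In the sequences below, read 5′ to 3′ on the strand of the gene, capitals mark the matched motif.
Per1, chr11:69098699-69098948, plus strand: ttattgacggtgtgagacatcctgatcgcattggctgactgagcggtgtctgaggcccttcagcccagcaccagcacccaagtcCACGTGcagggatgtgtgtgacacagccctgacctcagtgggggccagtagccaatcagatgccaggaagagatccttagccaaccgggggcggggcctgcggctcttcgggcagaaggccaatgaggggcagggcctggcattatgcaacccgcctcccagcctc
Per3, chr4:151044666-151044915, minus strand: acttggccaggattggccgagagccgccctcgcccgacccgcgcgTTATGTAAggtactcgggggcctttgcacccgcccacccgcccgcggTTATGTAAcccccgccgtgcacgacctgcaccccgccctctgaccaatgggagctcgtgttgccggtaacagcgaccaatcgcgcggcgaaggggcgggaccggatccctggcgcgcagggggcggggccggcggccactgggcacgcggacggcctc
Nr1d1, chr11:98775378-98775627, minus strand: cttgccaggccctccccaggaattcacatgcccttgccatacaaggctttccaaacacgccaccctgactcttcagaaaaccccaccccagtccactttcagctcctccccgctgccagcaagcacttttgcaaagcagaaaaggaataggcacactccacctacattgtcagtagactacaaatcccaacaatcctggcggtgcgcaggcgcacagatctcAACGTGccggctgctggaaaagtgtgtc
Cry1, chr10:85185092-85185151, minus strand: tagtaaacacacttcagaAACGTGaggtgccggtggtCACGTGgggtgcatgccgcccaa
Cry2, chr2:92434203-92434262, minus strand: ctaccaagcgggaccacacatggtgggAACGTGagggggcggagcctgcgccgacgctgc
Arntl, chr7:113207528-113207557, plus strand: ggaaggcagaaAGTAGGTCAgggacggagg

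The match in *Per1* was an E-box at position -166 from the start site, while *Per3* held 2 D-boxes, at -205 and -158. *Cry1* held an E-box at -60 and an E'-box at -79, the latter on the opposite strand and so read as its complement AACGTG. The E'-boxes of *Cry2* at -166 and of *Nr1d1* at -28 were also on the opposite strand. In *Arntl* the match was a ROR element at position 29, within the first transcribed bases of its second RefSeq start. *Clock*, *Npas2* and *Nr1d2* held none of the 5 motifs in these windows. Matches to letters are a description and do not show that a factor binds.

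The loop members differed between genotypes in both directions. Levels are given as CPM (counts scaled to a common library size) scaled with TMM factors, in the order of replicates 1 to 4, and differences as the log2 fold change of KL-/- over WT with its standard error (SE). A gene was called at a false discovery rate (FDR) under 0.05 in edgeR's quasi-likelihood test over all 12551 genes. By this rule 8 of the 10 members were called, 4 higher in KL-/- (*Per1*, *Per2*, *Per3* and *Cry2*) and 4 lower (*Arntl*, *Clock*, *Npas2* and *Nr1d1*). Over all genes 14% were called, 7.35% higher and 6.67% lower. The same 8 members had no overlap between the genotypes, against 19.7% of all genes. *Cry1* and *Nr1d2* were not called and overlapped. The median log2 fold change of the 10 members was 0.19, beside -0.02 over all genes.

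**Figure D1:**
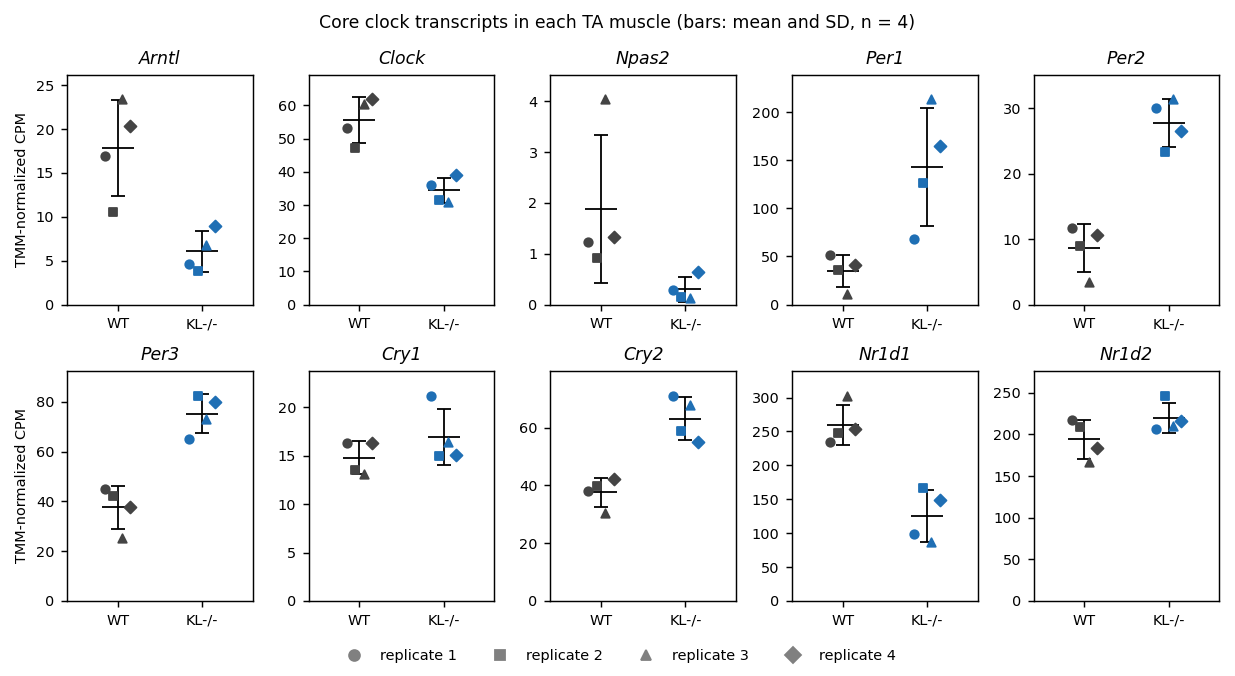
Level of each of the 10 transcripts (TMM-normalized CPM, linear axes from 0) in the 4 WT and 4 KL-/- muscles, with a marker shape for each replicate number and bars for the mean and SD. The genotypes separate in 8 panels and overlap in *Cry1* and *Nr1d2*, and WT replicate 3 (triangle) lies at an end of the WT values in 9 panels, all but *Clock*.

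The activator arm was lower in KL-/- muscle. *Arntl* (mm10 chromosome 7, 113207465 to 113314126), the obligate activator subunit, measured 16.9, 10.6, 23.4 and 20.4 CPM in WT and 4.60, 3.86, 6.76 and 9.01 CPM in KL-/-. Every KL-/- muscle lay below every WT muscle, although WT replicate 2 and KL-/- replicate 4 came within 2 CPM of each other. Its mean was 17.8 ± 5.51 CPM in WT and 6.06 ± 2.32 CPM in KL-/- (SD, n = 4), which was 2.94-fold lower (log2 fold change -1.55, SE 0.29, FDR = 0.0115). *Clock* (chromosome 5, 76209868 to 76304792), its DNA-binding partner and a histone acetyltransferase, measured 53.2, 47.1, 60.3 and 61.9 CPM in WT and 35.9, 31.5, 31.0 and 39.1 CPM in KL-/-. The genotypes were again fully separated, with a smaller difference than for *Arntl*. *Clock* was 1.62-fold lower, from 55.6 ± 6.82 to 34.4 ± 3.84 CPM (SD, n = 4; log2 fold change -0.69, SE 0.11, FDR = 0.00598).

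*Npas2* (chromosome 1, 39194272 to 39363240), which can stand in for *Clock*, was the least abundant member, with counts of 30, 20, 106 and 37 in WT and 8, 3, 3 and 17 in KL-/-. On the CPM scale these were 1.22, 0.925, 4.04 and 1.33 in WT and 0.279, 0.143, 0.124 and 0.641 in KL-/-. In KL-/- replicates 2 and 3 the transcript stood at 3 counts, the floor of detection used here, which corresponds to between 0.105 and 0.143 CPM over the 8 libraries. WT replicate 3 carried more *Npas2* than any other muscle. The difference was 6.11-fold (log2 fold change -2.61, SE 0.65, FDR = 0.0295), and it was the least precise of the loop. It was not called without KL-/- replicate 1 (log2 fold change -2.55, FDR = 0.0672) or without KL-/- replicate 3 (log2 fold change -2.36, FDR = 0.08). Without WT replicate 3 the log2 fold change was -1.91 (FDR = 0.0461), and without KL-/- replicate 4 it was -3.30 (FDR = 0.0416).

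The *Per* transcripts, which encode the repressors that accumulate over the cycle, were all higher in KL-/- muscle. *Per1* (chromosome 11, 69098956 to 69109957), which also responds acutely to glucocorticoids and activity, measured 51.1, 36.3, 11.2 and 40.9 CPM in WT and 68.1, 126, 213 and 165 CPM in KL-/-. The genotypes did not overlap, but *Per1* also spread widely within each of them. The mean rose from 34.9 ± 17.0 to 143 ± 61.5 CPM (SD, n = 4), a 4.11-fold difference (log2 fold change 2.04, SE 0.45, FDR = 0.0202). The call depended on single libraries, as it was not made without WT replicate 2 (2.06, FDR = 0.0558), KL-/- replicate 3 (1.78, FDR = 0.052) or KL-/- replicate 4 (1.96, FDR = 0.0542).

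*Per2* (chromosome 1, 91415982 to 91459328), the paralog with the largest part in rhythm maintenance together with *Per1*, measured 11.8, 8.88, 3.51 and 10.6 CPM in WT and 29.95, 23.2, 31.4 and 26.5 CPM in KL-/-. The KL-/- muscles were close to each other and all lay above the WT muscles, of which replicate 3 was low. *Per2* was 3.20-fold higher (8.69 ± 3.65 to 27.8 ± 3.64 CPM, SD, n = 4; log2 fold change 1.68, SE 0.29, FDR = 0.0085). *Per3* (chromosome 4, 151003655 to 151044665), a paralog that the loop can run without, measured 44.99, 42.2, 25.2 and 37.8 CPM in WT and 65.2, 82.5, 73.1 and 80.0 CPM in KL-/-. All KL-/- values were above all WT values. Its mean rose 2.00-fold, from 37.6 ± 8.77 to 75.2 ± 7.76 CPM (SD, n = 4; log2 fold change 1.00, SE 0.16, FDR = 0.00706). The 3 paralogs thus differed by log2 fold changes of 2.04, 1.68 and 1.00 from *Per1* to *Per3*, and whether these sizes differ from each other was not tested.

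The cryptochromes, the partners of PER and the direct inhibitors of the activator pair, gave different calls. *Cry2* (chromosome 2, 92403647 to 92434069) measured 38.1, 39.9, 30.6 and 42.1 CPM in WT and 71.1, 58.8, 67.7 and 55.0 CPM in KL-/-. Every KL-/- muscle exceeded every WT muscle. It was 1.68-fold higher (37.7 ± 5.0 to 63.2 ± 7.52 CPM, SD, n = 4; log2 fold change 0.75, SE 0.11, FDR = 0.00598). *Cry1* (chromosome 10, 85131700 to 85185054), the stronger repressor of the pair, measured 16.3, 13.5, 13.1 and 16.3 CPM in WT and 21.2, 15.0, 16.5 and 15.0 CPM in KL-/-. The ranges overlapped, and KL-/- replicate 1 stood above the rest. For *Cry1* the log2 fold change was 0.19 with an SE of 0.13 (FDR = 0.331). Per kb of exon, the *Cry2* to *Cry1* ratio was 1.77, 2.23, 1.76 and 1.95 in WT and 2.53, 2.96, 3.10 and 2.76 in KL-/-, without overlap, and the difference between their fold changes was not tested.

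The nuclear receptors of the second arm, both repressors of *Arntl*, also gave different calls. *Nr1d1* (chromosome 11, 98767932 to 98775377) measured 235, 248, 303 and 254 CPM in WT and 98.6, 167, 86.4 and 148 CPM in KL-/-. All KL-/- muscles were below all WT muscles, and replicates 1 and 3 were the lowest. It was 2.08-fold lower (260 ± 29.7 to 125 ± 38.6 CPM, SD, n = 4; log2 fold change -1.06, SE 0.20, FDR = 0.0107). *Thra*, a thyroid hormone receptor gene on the opposite strand, overlaps 9.51% of the exon bases of *Nr1d1* (263 bases), and whether reads were assigned by strand is not given in the sources used here. *Thra* itself had a mean of 82.0 CPM in WT and 95.3 CPM in KL-/- (log2 fold change 0.22, SE 0.07, FDR = 0.0797) and was not called. The part of the shared bases in the *Nr1d1* counts was not tested. *Nr1d2* (chromosome 14, 18204056 to 18239106) measured 218, 209, 167 and 184 CPM in WT and 206, 247, 211 and 216 CPM in KL-/-. The genotypes overlapped, with a log2 fold change of 0.18 and an SE of 0.09 (FDR = 0.224).

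**Figure D2:**
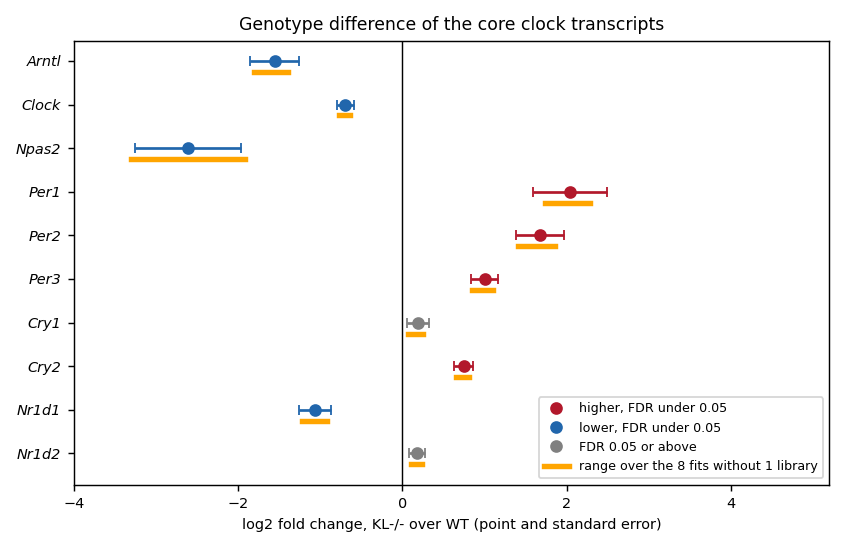
Log2 fold change of each member, KL-/- over WT (points, with bars for the standard error), and the range of the same value over the 8 fits that each leave out 1 library (orange). The 4 members of FDR under 0.05 on the left run from -2.61 to -0.69 and the 4 on the right from 0.75 to 2.04, no orange range crosses 0, and *Cry1* and *Nr1d2* (grey) lie at 0.19 and 0.18.

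*Nr1d1*, whose product represses *Arntl*, and *Arntl* itself were both lower in KL-/- muscle. *Nr1d1* and the *Per* genes, which share activation by the ARNTL pair, stood in opposite directions. The hour of collection is not given, and its part in these directions was not tested. Ratios between members, of levels per kb of exon, were also read within each muscle and do not depend on the scaling between libraries. The *Per1* to *Arntl* ratio was 1.87, 2.12, 0.295 and 1.24 in WT and 9.16, 20.2, 19.6 and 11.4 in KL-/-, so that *Per1* exceeded *Arntl* in every muscle but WT replicate 3. The *Per2* to *Arntl* ratio was 0.347, 0.418, 0.0747 and 0.259 in WT and 3.24, 3.00, 2.31 and 1.47 in KL-/-. *Per2* was thus below *Arntl* in every WT muscle and above it in every KL-/- muscle. The *Nr1d2* to *Nr1d1* ratio was 0.552, 0.503, 0.328 and 0.431 in WT and 1.24, 0.882, 1.45 and 0.868 in KL-/-. In contrast, the *Clock* to *Arntl* and *Per1* to *Per2* ratios overlapped between the genotypes, with means of 0.967 and 1.82 for the first and 4.81 and 6.44 for the second.

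Ordered by level per kb of exon, the WT loop ran from *Nr1d1* (94.1 CPM per kb) through *Nr1d2* (41.9), *Cry2* (9.42), *Per1* (7.42), *Per3* (6.21), *Arntl* (6.13), *Clock* (5.61), *Cry1* (4.91) and *Per2* (1.49) to *Npas2* (0.450). Only 3 neighbours in that order were separated in all 4 WT muscles, *Nr1d1* from *Nr1d2*, *Nr1d2* from *Cry2*, and *Cry1* from *Per2*. Each transcript from *Cry2* to *Cry1* overlapped in its range with the next in that order. In KL-/- muscle the order was *Nr1d2* (47.4 CPM per kb), *Nr1d1* (45.2), *Per1* (30.5), *Cry2* (15.8), *Per3* (12.4), *Cry1* (5.61), *Per2* (4.76), *Clock* (3.47), *Arntl* (2.08) and *Npas2* (0.0710). There the ranges of *Nr1d2*, *Nr1d1*, *Per1* and *Cry2* overlapped from each to the next. *Arntl* moved from rank 6 to rank 9, and *Clock* lay above it in all 4 KL-/- muscles.

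**Figure D3:**
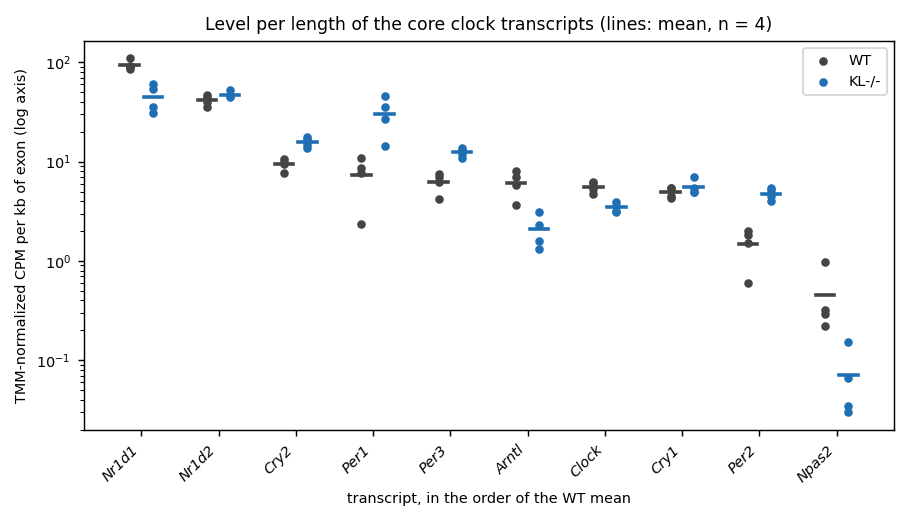
Level per kb of exon (TMM-normalized CPM per kb, log axis) in each WT and KL-/- muscle, in the order of the WT mean, with lines for the mean of 4. *Nr1d1* and *Nr1d2* lie above 30 CPM per kb in every muscle, and *Per1* covers 2.38 to 45.4 CPM per kb over the 8 muscles.

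The loop also varied among mice of 1 genotype. Among the 9784 genes with a mean of at least 4 CPM, the median ratio of the highest to the lowest muscle was 1.20 in WT and 1.23 in KL-/-. Of the 9 members at that level, 9 exceeded the median in WT and 8 in KL-/-. In WT the ratio was 4.58 for *Per1*, 3.35 for *Per2*, 2.21 for *Arntl* and 1.79 for *Per3*, and 1.24 to 1.38 for *Clock*, *Cry1*, *Cry2*, *Nr1d1* and *Nr1d2*. In KL-/- it was 3.13 for *Per1*, 2.33 for *Arntl* and 1.93 for *Nr1d1*, while *Per2* varied 1.35-fold.

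This spread was shared between members. WT replicate 3 was the lowest WT muscle for *Per1*, *Per2*, *Per3*, *Cry1*, *Cry2* and *Nr1d2* and the highest for *Arntl*, *Npas2* and *Nr1d1*. Each of these places lay on the side away from the KL-/- mean. KL-/- replicate 3 was the highest KL-/- muscle for *Per1* and *Per2* and the lowest for *Clock*, *Npas2* and *Nr1d1*. It is also the library that carries another batch date in the labels than the other 7. Without it, 6 of the 8 calls were still made, and *Per1* and *Npas2* missed the threshold with the values given above. With both of these libraries left out, an alternative chosen after the values were seen, *Per2*, *Per3* and *Cry2* were still called (log2 fold changes 1.35, 0.85 and 0.62), and the other 5 kept their direction at an FDR between 0.054 and 0.101. In that comparison of 3 against 3 muscles 184 genes were called in all, beside 1759 in the full set, and no member was called lower.

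After the mean of each genotype was removed, log2 levels over the 8 muscles showed the members in blocks, given as a description of 8 points from the same libraries. *Arntl*, *Clock* and *Npas2* varied together (Pearson r of 0.74 for *Arntl* and *Clock*, 0.69 for *Arntl* and *Npas2*, 0.79 for *Clock* and *Npas2*). *Per1*, *Per2* and *Per3* formed another block (r of 0.79, 0.86 and 0.79), and *Per2* varied as closely with *Cry2* (r = 0.79). WT replicate 3 was the lowest WT muscle for each *Per* transcript. Among KL-/- muscles the *Per* transcripts did not share an order, as replicate 2 was the lowest for *Per2* and the highest for *Per3*. The part of single muscles in these coefficients was not tested. *Nr1d2* varied with *Per3* (r = 0.89) and against *Arntl* (r = -0.62), whereas *Nr1d1* ran against *Cry2* (r = -0.74). *Arntl* and *Per1* were not related in this way (r = -0.01).

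Accessory clock genes were read in the same muscles. *Dbp*, a D-box activator and a direct target of the ARNTL pair, measured 118, 128, 55.7 and 111 CPM in WT and 130, 182, 116 and 122 CPM in KL-/-. The genotypes overlapped (log2 fold change 0.42, SE 0.24, FDR = 0.259), and WT replicate 3 was again the lowest. Its relative *Tef* was called higher (log2 fold change 0.40, FDR = 0.0268), and *Hlf* had a log2 fold change of 0.58 without overlap but an FDR of 0.0938. *Nfil3*, the D-box repressor, measured 11.9, 8.09, 13.5 and 9.72 CPM in WT and 26.4, 11.9, 47.1 and 18.9 CPM in KL-/-. It was called higher (log2 fold change 1.27, FDR = 0.0471) although KL-/- replicate 2 lay within the WT range. *Rora*, an activator of *Arntl*, was called higher (log2 fold change 0.38, FDR = 0.0394). *Ciart*, a repressor of the ARNTL pair, measured 4.82, 4.44, 1.30 and 7.53 CPM in WT and 6.14, 11.1, 20.8 and 8.37 CPM in KL-/-, and it was not called (log2 fold change 1.35, SE 0.48, FDR = 0.0893). The E-box repressors *Bhlhe40* (-0.15, FDR = 0.285) and *Bhlhe41* (-0.42, FDR = 0.170) were not called either.

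**Figure D4:**
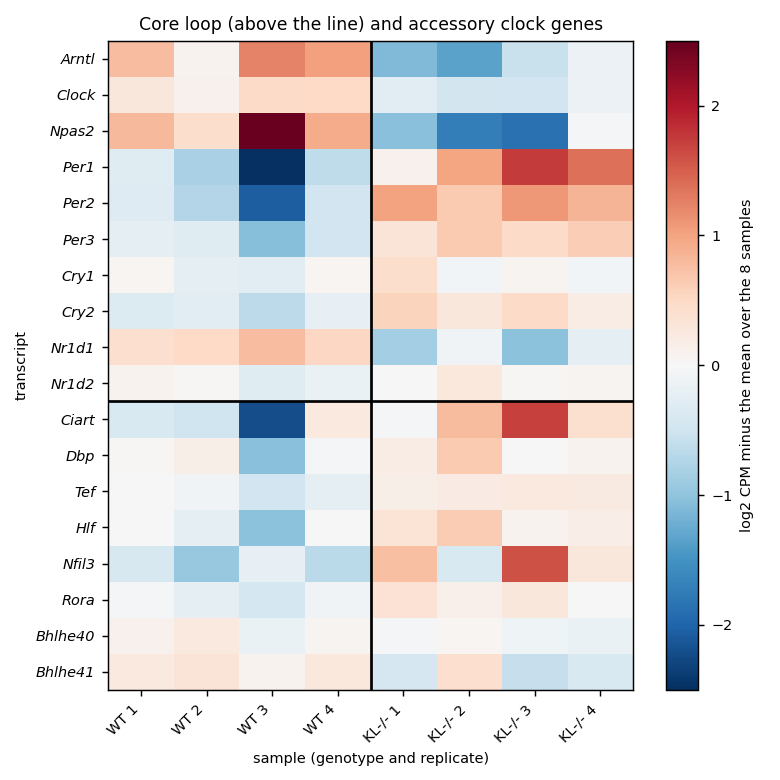
Log2 CPM minus the mean over the 8 muscles (color) for the 10 loop members above the line and 8 accessory clock genes below it, with WT muscles left and KL-/- muscles right of the vertical line. *Per1* reaches its lowest value, -2.49, in WT replicate 3 and its highest, 1.75, in KL-/- replicate 3, and *Ciart* runs from -2.22 to 1.70 in the same 2 muscles.

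Enzymes and cofactors that modify the loop were near the background. Of 37 listed clock regulators 35 were in the table, of which 4 were called higher and 1 lower (14.3%, median log2 fold change 0.12). The lower transcript was *Timeless*, a replication fork protein related to the fly clock gene (8.84 ± 1.27 to 5.07 ± 0.85 CPM, SD, n = 4; log2 fold change -0.81, FDR = 0.00971). Those called higher were *Usp2*, a deubiquitinase with clock-controlled expression (0.60, FDR = 0.0254), *Csnk1e*, the casein kinase that phosphorylates PER (0.50, FDR = 0.0197), *Ncor1*, the corepressor of NR1D1 (0.25, FDR = 0.0162), and *Usp7*, a deubiquitinase of CRY (0.23, FDR = 0.0402). Without KL-/- replicate 2, 11 of these regulators were called higher, and without WT replicate 2, WT replicate 3, KL-/- replicate 3 or KL-/- replicate 4 the count was 0 to 2. Over all genes 922 were called higher in the full set, 1521 without KL-/- replicate 2 and 404 to 435 in those other fits.

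Of 22 listed output genes of the clock 21 were in the table, of which 9 were called higher and 0 lower. These were 42.9%, beside 14% of all genes, with a median log2 fold change of 0.40 over the list. The list was chosen with earlier results of these data known. The list holds *Tef*, *Nfil3* and *Rora*, given above. *Lonrf3* had the largest difference, from 2.61, 3.15, 2.55 and 2.04 CPM in WT to 11.96, 7.44, 11.02 and 9.20 CPM in KL-/- (log2 fold change 1.95, SE 0.18, FDR = 0.00148). Every KL-/- muscle was well above the WT muscles. *Dgat2*, a triglyceride synthesis enzyme (0.90, FDR = 0.0123), and *Wee1*, a kinase that restrains mitotic entry (0.77, FDR = 0.0358), were also called, as were *Tcap* and *Tspan4*. The count was 8 without KL-/- replicate 2 and 2 to 5 without any 1 of the other 7 libraries. Over all genes the count called higher was 1521 and 404 to 695 in the same fits, beside 922 in the full set.

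Transcripts that respond to inputs of muscle clocks were read from 3 lists, and the inputs themselves were not measured. These lists, too, were chosen with earlier results of these data known. Of 18 glucocorticoid-responsive genes 10 were called higher and 0 lower (55.6%, beside 14% of all genes, median log2 fold change 0.96). Among those called, the largest differences were in *Ddit4*, an inhibitor of mTORC1 (2.85, FDR = 0.0266), and the transcription factor *Cebpd* (2.37, FDR = 0.0103). The glutamine synthetase *Glul* (1.68, FDR = 0.0165), the receptor cochaperone *Fkbp5* (1.40, FDR = 0.0354) and the PI3-kinase subunit *Pik3r1* (1.10, FDR = 0.0306) followed. The other 8 were not called, from *Sgk1* (0.09, FDR = 0.729) to *Mt2* (2.44, FDR = 0.058). *Fkbp5* measured 43.5, 28.96, 23.2 and 36.0 CPM in WT and 103, 32.4, 135 and 78.4 CPM in KL-/-, so that KL-/- replicate 2 overlapped with WT. *Ddit4* was uneven among the KL-/- muscles, at 141 CPM in replicate 3 beside 16.1 to 41.5 CPM in the other KL-/- muscles and 5.41 to 9.43 CPM in WT. The count was 13 without KL-/- replicate 2 and 3 to 6 without any 1 of the other 7 libraries, and the counts over all genes in these fits are given above.

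Of 17 immediate early genes 2 were called higher, *Btg2* (1.69, FDR = 0.0125) and *Atf3* (1.38, FDR = 0.0257), with a median log2 fold change of 0.70 over the list, which at 11.8% called was below the 14% of all genes. Their count was 6 without KL-/- replicate 2 and 1 without any 1 of WT replicates 1 to 3 or KL-/- replicates 1 and 4. The counts over all genes also moved in these fits, as given above. Of 15 temperature-responsive genes 2 were called higher and 2 lower (26.7%, median log2 fold change 0.07). The cold-inducible RNA-binding proteins *Rbm3* (1.41, FDR = 0.00244) and *Cirbp* (0.66, FDR = 0.0261) were higher. The heat shock genes *Hsph1* (-0.85, FDR = 0.00399) and *Hsp90aa1* (-0.39, FDR = 0.0321) were lower. For *Cirbp*, KL-/- replicate 2 (19.7 CPM) lay within the WT range of 16.9 to 20.1 CPM. The other 11 genes were not called, with log2 fold changes in both directions, from -0.23 to 0.82. Without 1 library, 1 to 3 of the list were called higher and 1 to 2 lower. *Rbm3* measured 27.2, 31.1, 26.8 and 37.7 CPM in WT and 83.6, 59.9, 82.8 and 101 CPM in KL-/-. Some genes of these lists thus differed beside the loop, with the largest share called among the glucocorticoid-responsive genes. Their part in the values of the loop members was not tested.

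**Figure D5:**
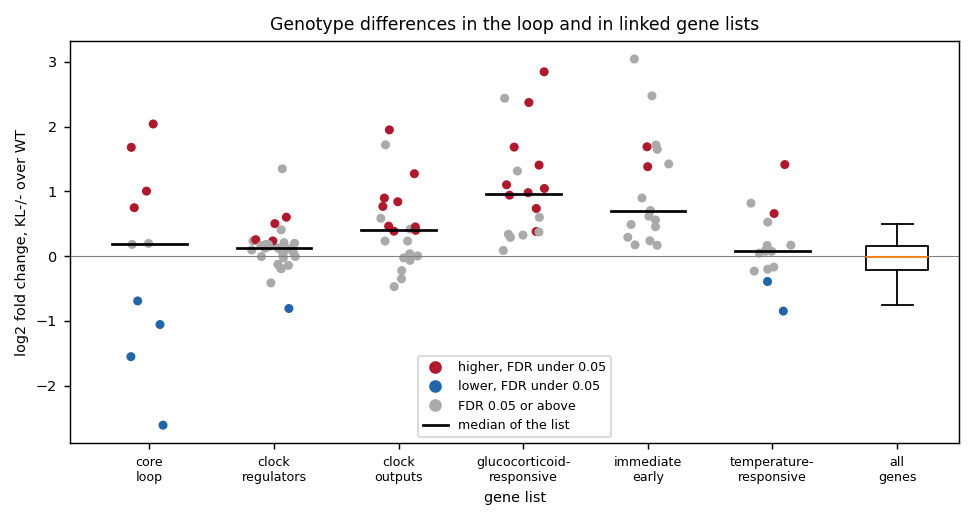
Log2 fold change, KL-/- over WT, of each gene in the loop and in 5 linked lists (points, red for higher and blue for lower at an FDR under 0.05, grey otherwise, with a line for the median of the list) beside a box for all 12551 genes with its quartiles and whiskers at percentiles 5 and 95. The loop members spread to both sides with a median of 0.19, and the glucocorticoid-responsive genes have a median of 0.96.

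The libraries held between 20860262 and 29273758 counts, and TMM factors were 1.025 to 1.054 in WT and 0.950 to 0.980 in KL-/-. The 6 myofibre markers were present, as the labelled tissue requires. Their summed level was 103000 to 121800 CPM in WT and 121400 to 170100 CPM in KL-/-, so the ranges overlapped only at their edges. The median log2 fold change of these markers was 0.25, and 0 were called. Of the markers of other cells in the bulk muscle, some were called. Called lower were 1 of 5 endothelial, 3 of 5 fibro-adipogenic, 2 of 4 tendon and 1 of 5 macrophage markers. Called higher were 2 of 5 Schwann cell and 1 of 4 smooth muscle markers. Over all genes 14% were called, and 19.7% did not overlap between the genotypes. Summed levels in KL-/- were below WT for endothelial (5 markers, 332 to 366 against 369 to 556 CPM), fibro-adipogenic (5 markers, 143 to 313 against 359 to 611 CPM) and tendon markers (4 markers, 54.9 to 141 against 179 to 223 CPM), and above WT for Schwann cell markers (5 markers, 96.1 to 117 against 51.6 to 92.7 CPM). Macrophage, satellite cell, smooth muscle, adipocyte and blood markers overlapped, with *Plin1* and *Lep* and 4 of the 5 blood markers not in the table. The part of these cells in the loop values was not tested. Fewer cells of a type and less RNA per cell cannot be told apart in bulk tissue.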

How the data were processed

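RNA sequencing of TA muscle from 8 mice (4 WT, 4 KL-/-) was read from 1 table of raw counts per gene deposited by the authors, whose columns name the libraries. Per the labels and the study's methods, 100 ng of RNA was used per library, reads were checked with FastQC and aligned to mm10 with STAR, and counts were made with featureCounts. The labels say total RNA and the methods mRNA sequencing. The annotation release and strand setting are not given in the sources used here, and edgeR's default filter on low counts removed none of the 12551 genes in the table.

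The genotypes were compared with edgeR 4.0.16 under R 4.3.3 (TMM factors, genotype only, quasi-likelihood test, Benjamini-Hochberg over 12551 genes, FDR under 0.05). Log2 levels used a prior count of 2. Samples were grouped by the labels, 1 mouse each, and p-values measure the spread between mice. Members, gene lists and tests were chosen with earlier results of these data known, and each list is described by counts and its median only. Besides the members, the genes named are *Dbp*, *Tef*, *Hlf*, *Nfil3*, *Rora*, *Bhlhe40*, *Bhlhe41*, *Ciart*, up to 5 called genes per list with the largest absolute log2 fold change and the 5 genes most correlated with *Arntl* and with *Nr1d1*. *Thra*, *Tcap*, *Tspan4*, *Sgk1* and *Mt2* were added after values were seen. One further named output gene is counted in its list but not reported here. Gene positions and exon lengths are those of the counted exons in the deposited table (mm10), and overlapping genes come from GENCODE M21. Promoters are from RefSeq on GRCm38.p6. Libraries of a genotype differed by more than sampling noise (chi-square per gene at least 9.91). The fit was tested on simulated data with known differences. It called 79.05% of changes of log2 size 1 and 96.81% of those of log2 size 2, with 12 false calls. Smaller changes were not simulated.

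Alternatives were DESeq2 1.42.0, limma-voom 3.58.1, edgeR's likelihood ratio test and its older quasi-likelihood method, RLE factors, library totals, a minimum of 10 counts in every library, no filter, the replicate number as a block, and each library left out. Replicate numbers did not pair the mice. Intervals of counting are not given, and the floor of 3 counts covers counting error only.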

Additional observations from a re-analysis of the deposited data

Results flagged for a closer look

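*Npas2* in WT replicate 3 stood apart from its group at 4.04 CPM, beside 0.925 to 1.33 CPM in the other WT muscles, with a gap of 0.871 of the group's range. *Bhlhe41* in KL-/- replicate 2 stood apart at 103 CPM, beside 51.8 to 59.1 CPM in the other KL-/- muscles (gap of 0.858), and this muscle lay above all WT muscles. Both gaps exceed Dixon's 95% critical value for 4 samples. They are 2 of 38 groups examined (19 clock genes in 2 genotypes), of which chance alone would mark about 1 in 20. The cause was not tested.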

How the results depend on the processing

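No member changed direction under any alternative. *Arntl*, *Clock*, *Per2*, *Per3*, *Cry2* and *Nr1d1* were called in all 8 fits without 1 library and in the 9 other fits, and *Cry1* and *Nr1d2* in none of them. Of the 9, the fit with no filter had to repeat the values reported above, since the default filter removed no gene. *Npas2* was left untested by the minimum of 10 counts, and *Per1* was not called with the replicate block (2.06, FDR = 0.0741). Same-numbered mice did not deviate together (correlations of -0.462 to 0.215), and 1 of 4 WT samples correlated best with its own number. Scaling by library totals moved the median log2 fold change over the whole set of genes from -0.02 to -0.13 and the share of calls that were higher from 52.4% to 18.8%.

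Log2 fold changes over the fits that leave out libraries, the joint removal of both replicates 3 included, were -1.81 to -1.39 for *Arntl*, -0.77 to -0.61 for *Clock*, -3.30 to -1.66 for *Npas2*, 1.49 to 2.28 for *Per1* and -1.22 to -0.83 for *Nr1d1*. With the joint removal *Arntl* (-1.45, FDR = 0.0765), *Clock* (FDR = 0.0565), *Npas2* (FDR = 0.101), *Per1* (FDR = 0.054) and *Nr1d1* (FDR = 0.0583) were not called. Members called lower numbered 0 to 4 over these fits, and genes called overall 87 to 1521 higher and 97 to 1234 lower. Regulators numbered 0 to 11 higher and 1 to 2 lower, outputs 2 to 8 higher and 0 to 2 lower, glucocorticoid-responsive genes 3 to 13 higher, immediate early genes 1 to 6 higher, and temperature-responsive genes 1 to 3 higher and 1 to 2 lower. The replicate block gave 348 genes higher and 323 lower, with 0 regulators, 5 outputs, 4 glucocorticoid-responsive genes and 1 temperature-responsive gene higher and 1 lower. Library totals gave 492 genes higher and 2127 lower, with 2 regulators higher and 3 lower, 4 outputs higher and 4 temperature-responsive genes lower. The likelihood ratio test and DESeq2 gave 4 immediate early genes higher. The cause of these changes was not tested. Depth limits *Npas2*, which had 3 counts in 2 KL-/- libraries.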

Other observations

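Genes outside the loop followed single members closely over the 8 muscles once each genotype's mean was removed. Among 9783 genes with a mean of at least 4 CPM, those most like *Arntl* were *4930523C07Rik* (Pearson r = 0.967), *Man2c1* (0.959), *Nrbp2* (0.949), *Syne1* (0.949) and *Slc25a40* (0.947). Those most like *Nr1d1* were *Osbpl7* (0.994), *Tmem101* (0.984), *Mamstr* (0.977), *Plekhg1* (0.958) and *1600012H06Rik* (0.956). None of these 10 genes is a loop member. *Nrbp2* was called higher in KL-/- (log2 fold change 0.64, FDR = 0.0226), against the direction of *Arntl*, and *Plekhg1* lower (-1.003, FDR = 0.0227), in the direction of *Nr1d1*. The other 8 were not called. The highest of 9783 coefficients over 8 points from shared libraries are a description only.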
